A study of Mus musculus with 12 samples.

Results

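A set of 10 genes known as targets or feedback regulators of Wnt signalling was followed through a 48 h treatment of mouse pre-iPSCs, cells stalled late in reprogramming. They are the scaffold Axin2, the Dishevelled inhibitors Nkd1 and Nkd2, the R-spondin receptor Lgr5, the ubiquitin ligases Rnf43 and Znrf3, the secreted enzyme Notum, and the transcription factors Sp5, Lef1 and Tcf7. The set was named gene by gene for its place in the pathway, and it holds 10 of the 20325 genes measured. Of these, 9 passed the filter on low counts (at least 10 counts in at least 3 of 12 libraries), and Nkd2 did not. Of the 10, 5 lie on chromosome 11 (Axin2, Rnf43, Znrf3, Notum and Tcf7). Positions below are those of the gene annotation on the mm9 build.

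Cells were grown without feeders for 48 h, until day 2, in one of 4 conditions with 3 libraries each, labelled A, B and C. The conditions were the solvent DMSO, ascorbic acid (AA) at 50 μg/ml, 2i, and both together (AA+2i). 2i joins 1 μM of the MEK inhibitor PD0325901 with 3 μM of the GSK inhibitor CHIR99021. All 12 libraries came from a pre-iPSC line, and which line it was is not given in the sources used here. The study derived such lines from single colonies without GFP, picked after Nanog-GFP reporter fibroblasts had received pMX retroviruses with Oct4, Sox2, c-Myc and Klf4. They were kept on irradiated feeders before treatment.

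The Wnt pathway acts through β-catenin, which a complex of Axin, Apc, casein kinase and GSK3 marks for degradation while no ligand is bound. Inhibition of GSK3 lets β-catenin accumulate and act in the nucleus with factors of the TCF/LEF family. Many of the genes switched on in this way restrain the pathway again, at the destruction complex, at the receptor or outside the cell. Because 2i always held both inhibitors, the part of the GSK inhibitor and that of the MEK inhibitor in any change below cannot be told apart.

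The total of the expected counts (reads assigned to genes, which need not be whole) lay between 16173322 and 54392719 per library. Levels are given as TPM, a share of the transcripts of a library that takes gene length into account. Pou5f1 lay between 1865 and 9673 TPM in the 12 libraries, Nanog between 2.93 and 40.92 TPM and Cdh1, the epithelial cadherin, between 31.83 and 142.6 TPM. In a line made with an Oct4 retrovirus, the counts of Pou5f1 (Oct4) may also hold retroviral reads. Means of Nanog were 4.41 TPM in DMSO, 17.8 in AA, 6.08 in 2i and 36.6 in AA+2i. In edgeR Nanog rose by 2.02 on the log2 scale with AA (adjusted p = 0.0168) and by 3.23 with AA+2i (adjusted p = 0.000499). The summed TPM of 8 fibroblast markers lay between 7.09 and 21.3 (9.3 to 17 in DMSO, 11.6 to 21.3 in AA, 7.09 to 7.53 in 2i and 8.55 to 12.1 in AA+2i). Thy1, one of the 8, had means of 5.13 TPM in DMSO, 12.6 in AA, 1.15 in 2i and 3.80 in AA+2i. The fibroblast markers did not move together. Of the 8, 5 had a positive log2 difference with 2i and 3 with AA+2i. Means of Col1a1, Col1a2 and Col3a1 were higher in 2i and AA+2i than in DMSO. The summed TPM of 5 primitive endoderm markers lay between 0.17 and 0.73. The summed TPM of 4 epithelial markers was 103 to 169 with DMSO, 225 to 372 with AA, 117 to 144 with 2i and 318 to 334 with AA+2i. That of 4 primitive streak markers was 2.28 to 2.89 in DMSO, 1.93 to 2.12 in AA, 1.22 to 1.29 in 2i and 1.14 to 1.23 in AA+2i. This sum was mostly Eomes, the only 1 of the 4 that was tested. Eomes fell by 1.03 on the log2 scale with 2i (adjusted p = 0.0293) and by 1.17 with AA+2i (adjusted p = 0.0106). Means of T, Mixl1 and Gsc were at most 0.2 TPM in each condition. Those of T and Gsc were higher in 2i and AA+2i than in DMSO. Whether these differences have a part in the results below was not tested. In bulk RNA, fewer cells that express a gene and less RNA of it per cell cannot be told apart.

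The sequences just upstream of the start of transcription are shown for Sp5 and Axin2, the pair with the largest fold changes under AA+2i. Both are RefSeq sequences on the GRCm38.p6 build, 5′ to 3′, and end at the base before the start. That of Sp5 is chr2:70474673-70474922 on the plus strand and that of Axin2 is chr11:108920099-108920348 on the plus strand. Capitals mark the only match to CTTTGAT or CTTTGAA, forms of the DNA word read by TCF/LEF factors.
Sp5: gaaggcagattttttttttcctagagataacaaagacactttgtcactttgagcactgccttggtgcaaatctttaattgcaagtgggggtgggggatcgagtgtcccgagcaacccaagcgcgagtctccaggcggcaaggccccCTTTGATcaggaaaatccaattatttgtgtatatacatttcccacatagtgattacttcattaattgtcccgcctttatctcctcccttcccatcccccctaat
Axin2: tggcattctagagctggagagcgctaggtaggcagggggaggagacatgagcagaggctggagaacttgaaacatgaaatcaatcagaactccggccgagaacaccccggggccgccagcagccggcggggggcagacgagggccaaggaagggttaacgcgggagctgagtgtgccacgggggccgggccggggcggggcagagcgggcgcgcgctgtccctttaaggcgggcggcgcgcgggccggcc
Both words were searched on both strands of the 250 bases upstream of each start. The promoter table held 12 windows of 7 of the 10 genes, and 1 window, that of Sp5, held a match, in bases 104 to 98 before the start. Of 32851 mouse windows of this length, 3.21% held CTTTGAT, 4.46% held CTTTGAA and 7.48% held either. The match in Sp5 is a description of its sequence, and the lack of one in the other windows concerns these 250 bases and these letters only.

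Axin2 (chr11:108781663-108812097, plus strand), the scaffold of the destruction complex and a widely used readout of the pathway, was nearly absent without 2i and was expressed with it. Its TPM in libraries A, B and C was 0.06, 0.14 and 0.22 with DMSO and 0.22, 0.15 and 0.38 with AA. It was 3.50, 3.97 and 12.80 in 2i and 7.96, 4.95 and 11.11 in AA+2i. Every library with 2i lay above every library without it. Axin2 rose by 5.83 on the log2 scale with 2i (SE 0.767, adjusted p = 0.00202), a 56.9-fold change, and by 6.10 with AA+2i (SE 0.773, adjusted p = 0.00103). The DMSO libraries held only 2 to 13 counts of Axin2, so the size of the fold rests on few reads, while its 95% interval with 2i (4.14 to 7.52) stayed well above 0.

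Nkd1 (chr8:91045243-91118786, plus strand) binds Dishevelled and dampens the signal from the receptor. Its TPM was 0.12, 0.26 and 0.12 with DMSO and 0.05, 0.11 and 0.14 with AA, against 1.05, 1.13 and 2.31 in 2i and 0.85, 0.76 and 1.56 in AA+2i. The groups with and without 2i did not overlap. Nkd1 rose by 3.36 on the log2 scale with 2i (SE 0.558, adjusted p = 0.00697) and by 2.93 with AA+2i (SE 0.554, adjusted p = 0.00842). Without the libraries lettered C these were 2.67 (adjusted p = 0.077) and 2.27 (adjusted p = 0.0705), and without those lettered B 3.99 and 3.62, and neither pair passed. Its relative Nkd2 (chr13:73955982-73985079, minus strand) stayed between 0 and 0.23 TPM in all 12 libraries, listed at 0 in DMSO A, and the highest count was 16 in DMSO B. The ranges of Nkd2 overlapped in all 4 conditions, and it was below the count filter. Without the filter its log2 difference was 0.24 with 2i (adjusted p = 0.92) and -0.48 with AA+2i (adjusted p = 0.721).

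At the receptor, Rnf43 and Znrf3 are ligases that remove Frizzled from the cell surface, and R-spondin held by Lgr5 stops them. Rnf43 (chr11:87476224-87549041, plus strand) had 0.03, 0.13 and 0.06 TPM with DMSO and 0.05, 0.05 and 0.04 TPM with AA. It had 0.18, 0.18 and 0.59 TPM in 2i and 0.41, 0.35 and 0.62 TPM in AA+2i, again above every library without 2i. The rise with AA+2i was 2.72 on the log2 scale (SE 0.623, adjusted p = 0.0219). It did not pass without the libraries of any 1 letter. It was 2.55 without those lettered A (adjusted p = 0.0869), 3.73 without B (adjusted p = 0.178) and 2.21 without C (adjusted p = 0.115). With 2i alone the estimate was 2.15 (SE 0.635, adjusted p = 0.0912), which did not pass. Rnf43 was the least expressed of the genes that passed, with 1 to 13 counts in a DMSO library.

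Znrf3 (chr11:5176327-5344850, minus strand), the paralogue of Rnf43, showed a different picture. It was expressed in every condition, at 5.67, 7.45 and 3.30 TPM in DMSO, 5.89, 3.84 and 3.89 in AA, 6.71, 4.24 and 4.39 in 2i and 6.04, 4.43 and 3.91 in AA+2i. All 4 groups overlapped. The log2 difference was 0.10 with 2i (95% interval -0.52 to 0.73) and 0.03 with AA+2i (95% interval -0.59 to 0.66), and neither passed the test. Its sign turned under several alternatives.

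Lgr5 (chr10:114887367-115024836, minus strand) was nearly absent throughout, between 0.06 and 0.33 TPM. The libraries read 0.24, 0.22 and 0.15 TPM in DMSO, 0.10, 0.15 and 0.18 in AA, 0.08, 0.13 and 0.06 in 2i and 0.10, 0.14 and 0.33 in AA+2i. The 2i libraries lay below the DMSO libraries, while the AA+2i libraries overlapped with every other group. Its log2 difference was -0.87 with 2i (SE 0.544, adjusted p = 0.478) and 0.24 with AA+2i (SE 0.501, adjusted p = 0.749). The latter was -0.50 without AA+2i replicate C, the library with the highest value.

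Notum (chr11:120515102-120522489, minus strand) removes the lipid from Wnt proteins outside the cell. It was the most abundant of the 10 genes in all 4 conditions by its mean. Its TPM was 3.41, 34.26 and 32.92 in DMSO, 7.45, 41.31 and 80.82 in AA, 31.35, 54.59 and 151.37 in 2i and 144.38, 103.45 and 261.03 in AA+2i. All AA+2i libraries lay above all DMSO libraries, while 2i overlapped with DMSO. The log2 difference was 2.01 with 2i (SE 0.971, adjusted p = 0.343) and 3.14 with AA+2i (SE 1.014, adjusted p = 0.0867). Neither passed, although Notum was higher than in the DMSO library of the same letter in 3 of 3 libraries in both comparisons. In DESeq2 the difference with AA+2i passed (adjusted p = 0.00527) and that with 2i did not (adjusted p = 0.171).

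Among the transcription factors, Sp5 (chr2:70312980-70315786, plus strand) is a zinc finger protein that acts on genes bound by TCF/LEF factors, and its upstream sequence is the one with the match shown above. Sp5 had 0.23, 0.17 and 0.12 TPM with DMSO and 0.10, 0.15 and 0.27 TPM with AA. It had 1.2, 1.57 and 6.93 TPM in 2i and 5.71, 4.63 and 24.67 TPM in AA+2i, with no overlap between libraries with and without 2i. Sp5 rose by 4.45 on the log2 scale with 2i (SE 1.012, adjusted p = 0.0324) and by 6.37 with AA+2i (SE 1.057, adjusted p = 0.00438), a fitted 82.9-fold change from 2 to 8 counts in the DMSO libraries. Without AA+2i replicate C, the highest library, the rise with AA+2i was 5.02 (adjusted p = 0.00941), a fitted 32.4-fold change, and without the libraries lettered A it was 6.97. The rise with 2i was 3.01 (adjusted p = 0.0541) without the libraries lettered C and 5.08 (adjusted p = 0.0704) without those lettered A. The rise with 2i did not pass in limma on log2(TPM + 1) (1.60, adjusted p = 0.159), in a model of only the 2 groups compared (adjusted p = 0.058) or without DMSO replicate A (4.68, adjusted p = 0.076).

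Lef1 and Tcf7 are DNA-binding partners of β-catenin and were detected in every DMSO library. Lef1 (chr3:130813389-130927274, plus strand) had 0.34, 0.77 and 1.57 TPM in DMSO, 1.15, 1.40 and 2.60 in AA, 3.09, 2.38 and 4.72 in 2i and 2.45, 1.65 and 3.58 in AA+2i. All 2i libraries and all AA+2i libraries lay above the DMSO libraries. The log2 difference of Lef1 was 2.12 with 2i (SE 0.587, adjusted p = 0.0719) and 1.76 with AA+2i (SE 0.583, adjusted p = 0.0929), both short of the threshold. Both passed in DESeq2, at adjusted p = 0.00606 and 0.0242.

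Tcf7 (chr11:52065873-52096681, minus strand) had 3.20, 4.4 and 6.19 TPM in DMSO, 4.80, 7.09 and 10.10 in AA, 8.98, 6.75 and 9.01 in 2i and 14.03, 11.91 and 13.12 in AA+2i. The AA+2i libraries lay above all others. Tcf7 rose by 1.71 on the log2 scale with AA+2i (SE 0.347, adjusted p = 0.0122). This rise did not pass without the libraries lettered A (1.53, adjusted p = 0.051) or B (1.70, adjusted p = 0.265). It passed without those lettered C (1.96, adjusted p = 0.0442). With 2i alone the estimate was 1.03 (SE 0.343, adjusted p = 0.142), which did not pass. The plot of TPM in the 12 libraries shows these levels on one scale.

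**Figure D1:**
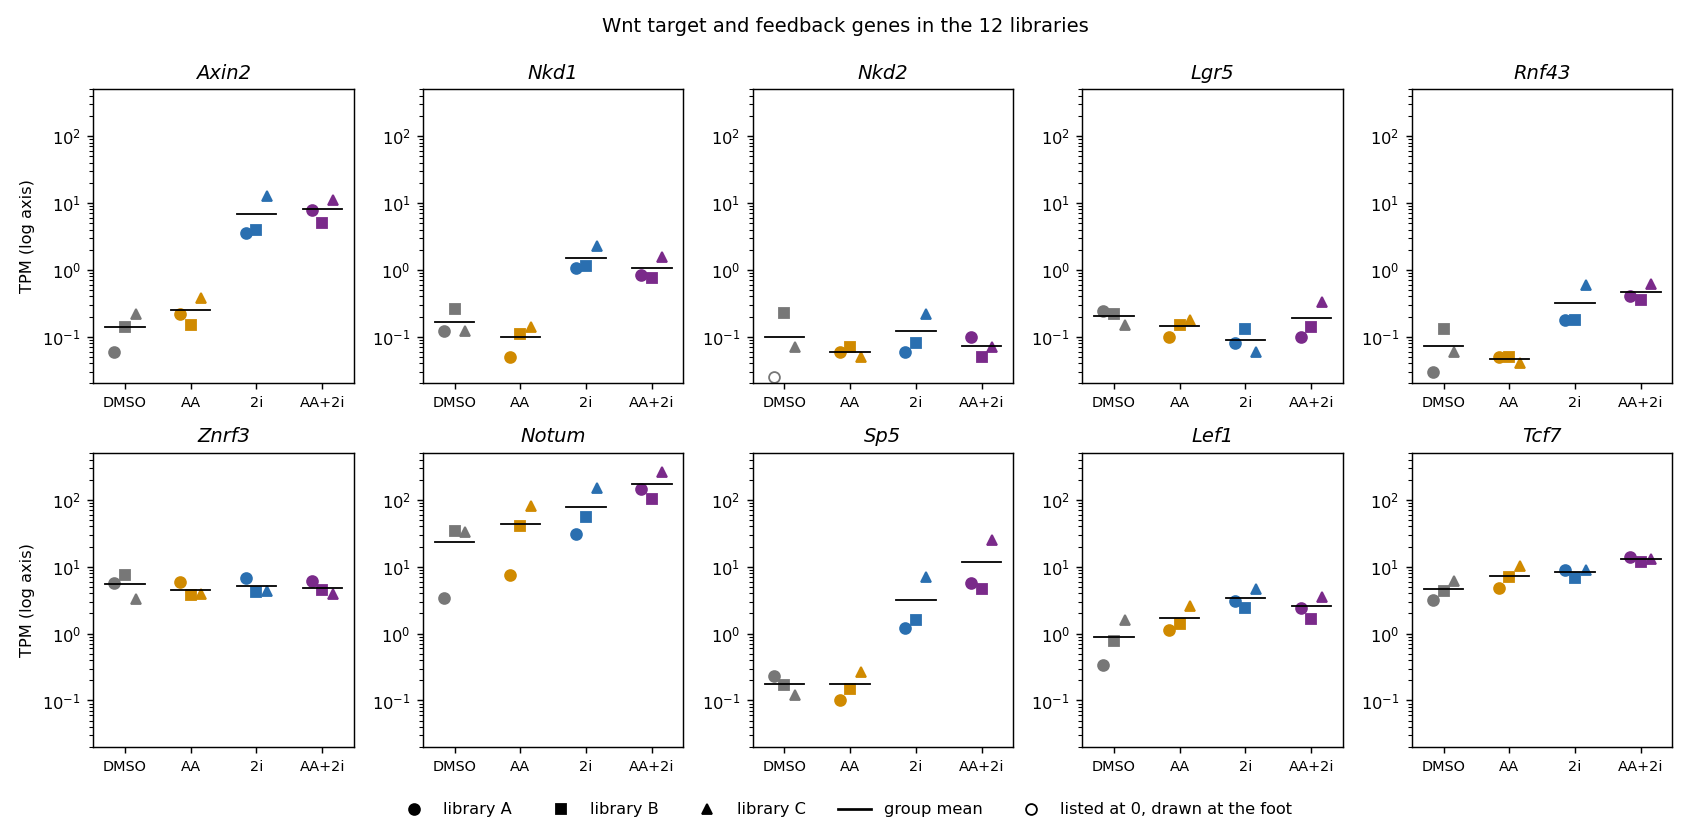
TPM (log axis) of each of the 10 genes in the 12 libraries, by condition, where circles, squares and triangles are libraries A, B and C and bars are group means. Axin2, Nkd1, Rnf43 and Sp5 lie above all DMSO and AA libraries in all 6 libraries with 2i. For Znrf3, Lgr5, Nkd2, Notum, Lef1 and Tcf7 the libraries with 2i overlap with those without.

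Across the set, 3 of the 9 tested genes rose with 2i (Axin2, Nkd1 and Sp5), where 1.59% of all 13400 tested genes rose. With AA+2i, 5 rose (Axin2, Nkd1, Rnf43, Sp5 and Tcf7), where 3.93% of all tested genes rose. The median log2 difference of the 9 was 2.12 with 2i and 2.72 with AA+2i, beside -0.02 in both over all tested genes. In 4 of the 9, all 6 libraries with 2i lay above all 6 without, and 2.09% of all tested genes did so. None of the 9 fell. Nkd1, Rnf43 and Sp5 passed the count filter only through libraries with 2i, where they were high, so the counts and medians over the 9 are a description and are not read against the shares of all genes. Of the 6 members that met the filter in the libraries without 2i, 1 rose with 2i (Axin2), 2 with AA+2i (Axin2 and Tcf7) and 3 averaged over AA (these and Lef1), and of the 4 that did not overlap only Axin2 is among them.

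Averaged over the presence of AA, the effect of 2i (AA+2i and 2i against AA and DMSO) used all 12 libraries. Of the 9 genes, 6 rose, where 5.4% of all tested genes rose. Axin2 rose by 5.54 on the log2 scale (SE 0.527), Sp5 by 5.37 (SE 0.719), Nkd1 by 3.49 (SE 0.40) and Rnf43 by 2.82 (SE 0.456). Lef1 rose by 1.45 (SE 0.403, adjusted p = 0.0362) and Tcf7 by 1.01 (SE 0.241, adjusted p = 0.0178). Without the libraries lettered A neither Lef1 (adjusted p = 0.128) nor Tcf7 (adjusted p = 0.0928) passed. Without those lettered B neither passed (adjusted p = 0.256 and 0.228). Notum had an estimate of 2.09 (SE 0.688, adjusted p = 0.0708) and did not pass. With AA present in both arms, AA+2i against AA, 4 rose, where 2.81% of all tested genes rose. They were Axin2 (5.25), Nkd1 (3.61), Rnf43 (3.48) and Sp5 (6.29, all log2 differences). Without AA+2i replicate C, Sp5 was 4.93 here and 4.69 averaged over AA, and it was 4.17 averaged over AA without the libraries lettered C. Rnf43 averaged over AA was 2.09 without the libraries lettered C and 3.51 without those lettered B. These comparisons share libraries, so they are given side by side.

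**Figure D2:**
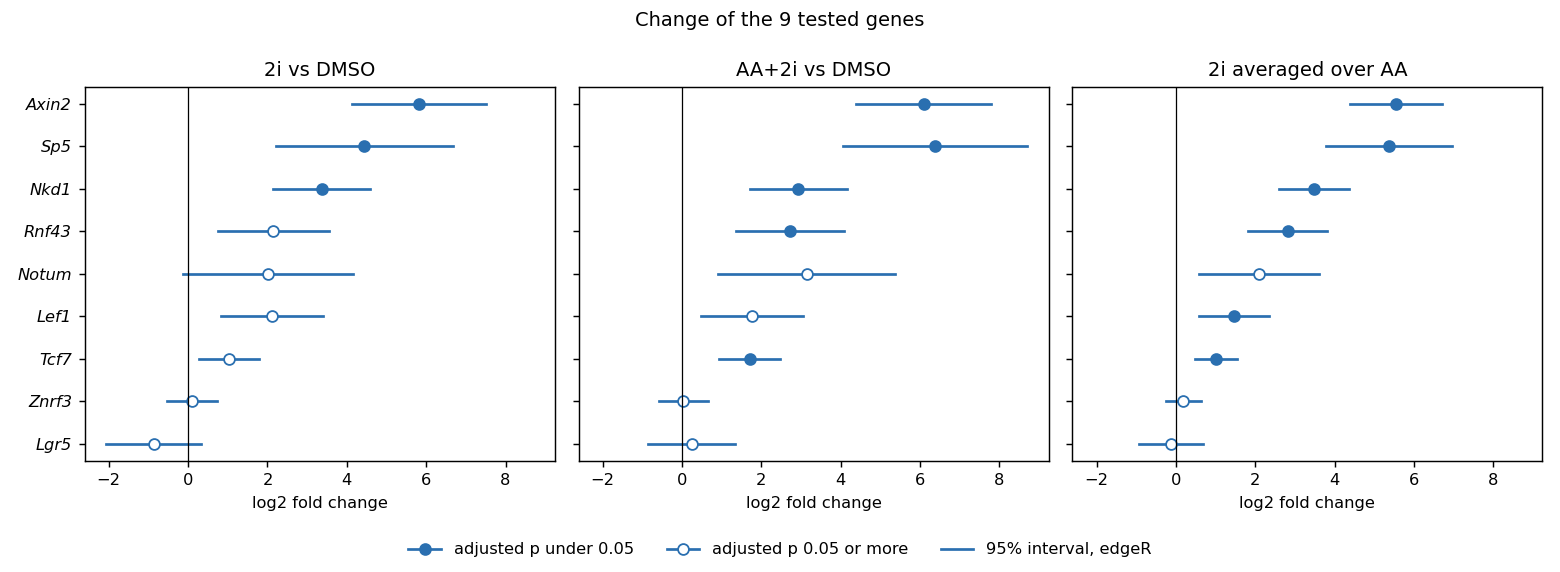
Log2 fold change of the 9 tested genes (edgeR) with 95% intervals, for 2i against DMSO, AA+2i against DMSO and 2i averaged over AA, where filled points have an adjusted p under 0.05. Axin2, Sp5 and Nkd1 are filled in each panel, and the intervals of Znrf3 and Lgr5 include 0 in each.

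AA alone moved none of the genes past the threshold. In AA against DMSO 0 of 9 passed in edgeR, where 1.34% of all tested genes did, 0 had an unadjusted p under 0.05, and DESeq2 and limma also called 0. The log2 differences lay between -0.76 (Rnf43, SE 0.726) and 0.98 (Lef1, SE 0.578). Axin2 (0.85, adjusted p = 0.935), Tcf7 (0.71, adjusted p = 0.585), Lef1 (adjusted p = 0.753) and Notum (0.97, adjusted p = 0.946) were each higher than in the DMSO library of the same letter in 3 of 3 libraries.

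The addition of AA to 2i likewise moved none past the threshold. In AA+2i against 2i 0 of 9 passed in edgeR, where 0.91% of all tested genes did, 1 had an unadjusted p under 0.05, and DESeq2 and limma called 0. That gene was Sp5 (1.93, SE 0.810, adjusted p = 0.452), higher with AA+2i in 3 of 3 letters. Without AA+2i replicate C its difference was 0.56, that of Notum 0.53 and that of Lgr5 0.36. Tcf7 (0.68, adjusted p = 0.606), Notum (1.13, adjusted p = 0.969), Rnf43 (0.57, adjusted p = 0.969) and Lgr5 (1.11, adjusted p = 0.587) were also higher in 3 of 3, while Nkd1 (-0.43, adjusted p = 0.969), Lef1 (-0.36, adjusted p = 0.969) and Znrf3 (-0.07, adjusted p = 0.977) were lower in 3 of 3. The difference of Axin2 was 0.26 (SE 0.587). In the test of the interaction, which asks whether the change with AA+2i differs from the sum of the changes with AA and 2i, 0 of 9 passed in edgeR, DESeq2 and limma and 0 had an unadjusted p under 0.05, where 0.0149% of all tested genes passed. The interaction of Sp5 was 1.85 (SE 1.396), or 0.48 without AA+2i replicate C, and intervals of this width do not show that the effects add.

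Without the 3 libraries lettered B, edgeR called 0 of 8 tested members in 2i against DMSO, AA+2i against DMSO and AA+2i against AA, with 5, 5 and 4 at an unadjusted p under 0.05. The log2 difference of Axin2 was then 5.98 with 2i (adjusted p = 0.157) and 6.25 with AA+2i (adjusted p = 0.0981). Over all genes, that fit called 1 higher and 10 lower with 2i. The effect of 2i averaged over AA still called 4 members without these libraries. Without DMSO replicate A, Sp5 with 2i, Rnf43 with AA+2i (2.44, adjusted p = 0.0674) and Lef1 averaged over AA (1.28, adjusted p = 0.0631) no longer passed. Without AA+2i replicate C, Rnf43 with AA+2i (2.33, adjusted p = 0.0892) and Lef1 averaged over AA (1.24, adjusted p = 0.0945) no longer passed.

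The order of the levels changed between conditions. With DMSO, Notum (mean 23.5 TPM ± 17.4 SD, n = 3) came before Znrf3 (5.47), Tcf7 (4.60) and Lef1 (0.893), and the other 6 genes had means between 0.0733 and 0.203 TPM. The ranges of Notum, Znrf3 and Tcf7 overlapped from one to the next, as did those of the 6 lowest genes. With AA, Notum (43.2 TPM) was followed by Tcf7 (7.33), Znrf3 (4.54) and Lef1 (1.72), and Axin2 (0.25) led the rest, whose neighbours all overlapped. With AA+2i the order was Notum (170 TPM ± 81.8), Tcf7 (13 ± 1.06), Sp5 (11.7 ± 11.3), Axin2 (8.01 ± 3.08), Znrf3 (4.79 ± 1.11), Lef1 (2.56 ± 0.970), Nkd1 (1.06 ± 0.438) and Rnf43 (0.460 ± 0.142), with Lgr5 and Nkd2 last. In that order the ranges overlapped between neighbours from Tcf7 to Znrf3 and between Lgr5 and Nkd2. With 2i alone, Notum (79.1 TPM) stood clear of the rest, and neighbours overlapped along the order Tcf7, Axin2, Znrf3, Lef1, Sp5 and Nkd1. Sp5 and Axin2, among the 6 lowest with DMSO, thus stood next after Notum and Tcf7 with AA+2i.

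GC content of the transcripts, which ran from 47.1% for Lgr5 to 59.5% for Notum and 62% for Sp5, moved with part of the spread between letters. Genes of high GC content read low in DMSO A and AA A and high in 2i C and AA+2i C. At the GC content of Notum, the curve of log2 CPM (counts scaled to the library total) against GC content lay at -1.62 in DMSO A and -1.40 in AA A, against 0.81 in 2i C and 1.07 in AA+2i C. The curves thus also differed between conditions, with overlap. In libraries A, B and C they lay at -1.62, 0.37 and -0.12 in DMSO and 0.47, -0.06 and 1.07 in AA+2i. With these curves removed, the SD of Notum within a condition, averaged over the 4 conditions, went from 1.43 to 0.63 on the log2 scale, and that of Nkd1 from 0.60 to 0.40. That of Sp5 went from 0.94 to 1.01, since DMSO A and AA A, with 4 and 2 counts, were raised by their curves.

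With this correction in the model, 5 members rose with 2i and 7 with AA+2i. Of all 13294 genes in that fit, 599 rose with 2i and 1188 with AA+2i, beside 213 and 526 of 13400 without the correction. Under the correction Rnf43 (1.84, adjusted p = 0.0304) and Lef1 (2.10, adjusted p = 0.0220) passed with 2i. Notum (2.40, adjusted p = 0.00375) and Lef1 (1.72, adjusted p = 0.0374) passed with AA+2i. The estimates for Axin2 (5.59 with 2i), Nkd1 (3.10) and Sp5 (3.79) were lower than without the correction and passed. With AA+2i those for Axin2 (5.76), Sp5 (5.30), Nkd1 (2.55), Rnf43 (2.26) and Tcf7 (1.25) were likewise lower and passed. What lies behind the GC differences between libraries was not tested.

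**Figure D3:**
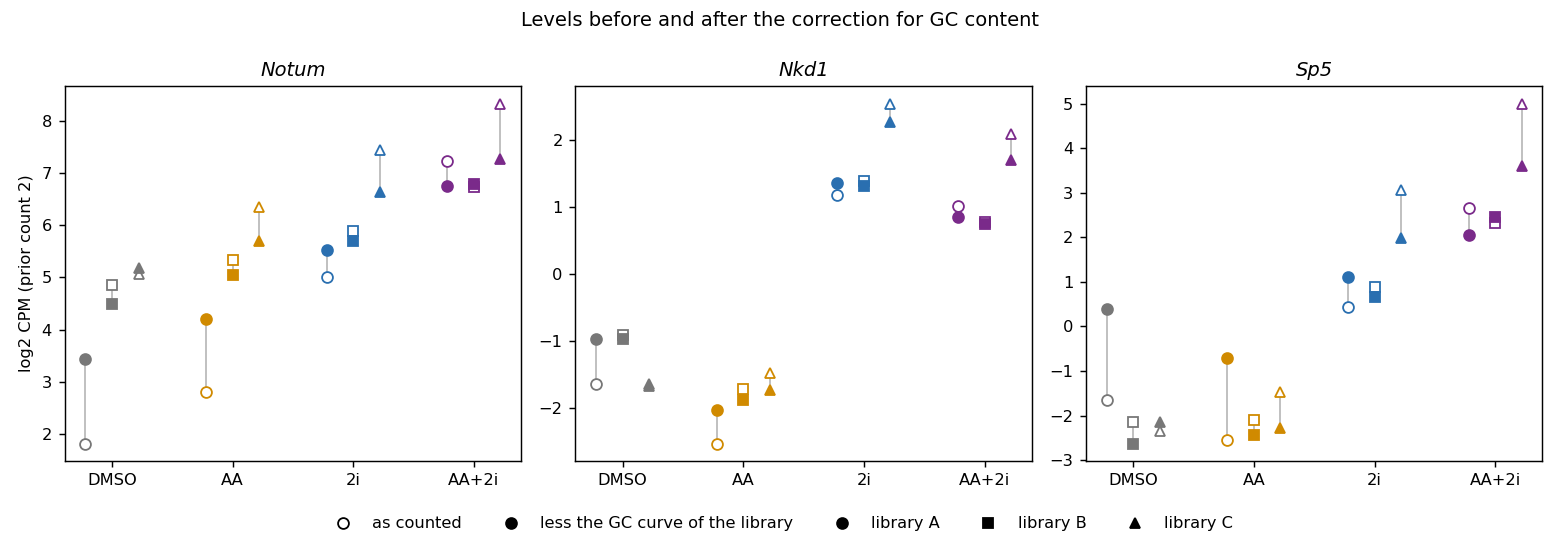
Log2 CPM (prior count 2) of Notum, Nkd1 and Sp5 in the 12 libraries, as counted (open) and less the GC curve of the library (filled), where grey lines join both values of a library. The correction lifts Notum in DMSO A from 1.81 to 3.43 and lowers it in AA+2i C from 8.34 to 7.27.

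The genes whose pattern over the 12 libraries was most like that of the set were found by their correlation with the mean of the 9 tested members, each centred and scaled. Outside the set the 6 highest were Rhob (r = 0.985), Cxx1c (0.979), Reep5 (0.972), 9030409G11Rik (0.970), Kif5a (0.969) and Fuca1 (0.968). These points share libraries, depth and GC content, and the values are a description. Rhob, a small GTPase, had means of 3.25 TPM in DMSO, 3.95 in AA, 18.1 in 2i and 38.3 in AA+2i. Cxx1c had 3.03, 3.37, 33.6 and 52.4 TPM in the same order. Reep5, with 26.2, 25.1, 35.9 and 40.3 TPM, had the same shape over a much narrower range. Within the set, the same correlation was 0.973 for Sp5, 0.958 for Axin2 and 0.953 for Rnf43, which are part of the mean, and 0.201 for Znrf3 and 0.089 for Lgr5.

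Of 105 other genes of the pathway in 7 lists, 104 were in the files and 83 were tested. With 2i 7 rose and 2 fell, where 1.59% of all tested genes rose and 2.83% fell. With AA+2i 12 rose and 7 fell, where 3.93% of all tested genes rose and 4.41% fell. Sp8, Cdx1 and Dkk1, among those that rose, had at most 3 counts summed over the DMSO or over the AA libraries. They passed the count filter only through libraries with 2i, where they were high. The counts of list genes are thus a description and are not read against the shares of all genes.

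Among the 19 ligands, 11 were tested and 2 rose in both comparisons. Wnt8a had 1.47, 4.80 and 4.58 TPM in DMSO, 3.21, 5.62 and 6.88 in AA, 35.98, 42.03 and 61.62 in 2i and 52.77, 53.50 and 57.90 in AA+2i. All 6 libraries with 2i lay above all others, and the log2 difference was 3.90 with 2i (SE 0.47, adjusted p = 0.00143) and 4.14 with AA+2i (SE 0.48, adjusted p = 0.000591). Wnt5b, a ligand mostly linked with β-catenin-independent signalling, rose by 1.47 (adjusted p = 0.0453) and 2.69 (adjusted p = 0.00164), the former not under 13 of 15 alternatives, which include TMM factors, limma and the GC correction (adjusted p = 0.147), while it passed in DESeq2.

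Of 15 receptors, all tested, Fzd10 rose by 1.98 in 2i and 2.17 in AA+2i on the log2 scale. Ror1, a receptor for Wnt5a, fell by 1.25 and 2.44, and Fzd7 fell by 0.81 with AA+2i. With 2i alone Fzd7 (-0.52, adjusted p = 0.193) did not pass. With AA alone the estimate for Ror1 was -1.33 (adjusted p = 0.0716), which did not pass. Of the 6 R-spondins and their receptors 3 were tested, and in either comparison 0 passed in edgeR, DESeq2 or limma and 1, Rspo3, had an unadjusted p under 0.05 in edgeR (1.92 and 1.60 on the log2 scale). With the GC correction Rspo3, a secreted ligand of the Lgr receptors, passed in both (adjusted p = 0.033 and 0.0342). With a term for the letter in the model it passed in neither (adjusted p = 0.0527 and 0.0611). Rspo3 was near absent, with means of 0.143 TPM in DMSO, 0.443 in 2i and 0.343 in AA+2i and 2 to 15 counts per library. Of the 13 measured genes of the transduction and destruction complex, to which β-catenin and GSK3 belong, all 13 were tested, and in either comparison 0 passed in edgeR, DESeq2 or limma and 0 had an unadjusted p under 0.05 in edgeR, with a median log2 difference of 0.25 with 2i and 0.28 with AA+2i. Among 13 nuclear partners, the Groucho corepressors Tle1 (1.01 and 0.94) and Tle3 (1.31 and 1.73) rose in both comparisons, and Pygo1, a β-catenin coactivator, fell by 1.46 with AA+2i. With the GC correction, Tle3 with 2i (adjusted p = 0.0702) and Pygo1 (adjusted p = 0.122) did not pass. Tle1 in both comparisons and Tle3 with 2i did not pass in limma at either pseudocount. Nor did they pass without the libraries of any 1 letter. With 2i alone the estimate for Pygo1 was 0.08 (adjusted p = 0.916).

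Of 18 secreted or membrane inhibitors and modulators 13 were tested. Tnfrsf19, a membrane receptor of the TNF family, rose by 4.69 in 2i and 4.73 in AA+2i (SE 0.59 in both). It had 0.27, 0.17 and 0.74 TPM with DMSO against 7.57, 5.64 and 12.25 with 2i. Wif1, which binds Wnt proteins, fell by 1.66 and 2.67. With AA alone the estimate for Wif1 was -1.58 (adjusted p = 0.0507), which did not pass. With AA+2i Dkk3 rose by 3.43 and Frzb, a secreted Frizzled-related protein, fell by 2.33, and with AA alone Dkk3 rose by 2.51 and Frzb fell by 3.00. With 2i alone Dkk3 (0.88, adjusted p = 0.477) and Frzb (-1.34, adjusted p = 0.0718) did not pass. Dkk3 was low, with 0.07, 0.13 and 0.04 TPM in DMSO and 0.90, 0.95 and 0.68 in AA+2i. Its counts ran from 1 to 42 per library. Dkk1, an inhibitor of the Lrp co-receptors, also rose with AA+2i (adjusted p = 0.0140). It had 0, 0.02 and 0.13 TPM with DMSO and 0.66, 0.79 and 7.29 with AA+2i, and the sum over the DMSO libraries was 3 counts. Of the alternatives that could test Dkk1, 8 kept this call and 2 did not, DESeq2 and limma on log2(TPM + 1).

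Of 20 other genes known as Wnt targets 15 were tested. Sp8, a relative of Sp5, rose in both comparisons (adjusted p = 0.00655 and 0.00992), from 3 counts over the DMSO libraries to 147 with 2i and 85 with AA+2i. With AA+2i Tbx3 (5.08), Msx2 (4.21) and Cdx1 (adjusted p = 0.0346, from 1 count over the DMSO libraries to 83) rose. With 2i alone Tbx3 (3.28, adjusted p = 0.0632), Msx2 (3.22, adjusted p = 0.0613) and Cdx1 (adjusted p = 0.112) were also higher but did not pass. With the GC correction they passed with 2i (adjusted p = 0.035, 0.0254 and 0.023). Cyclin D1 (Ccnd1) and Cd44 also stand on this list and fell with AA+2i, by 1.01 and 1.59. With 2i alone their estimates were -0.56 (adjusted p = 0.0824) and -1.07 (adjusted p = 0.199), which did not pass. With the GC correction both passed with 2i (adjusted p = 0.00919 and 0.0296). Ccnd1 had 174.70, 210.68 and 173.66 TPM with DMSO and 91.31, 75.02 and 72.89 with AA+2i, which did not overlap. Each gene named in these lists moved the same way in all 3 letters, and without the libraries lettered B none of them passed with 2i or AA+2i in edgeR (9 of 9 and 18 of 18 had an unadjusted p under 0.05), while Dkk1 then fell below the count filter. Without DMSO replicate A, 5 of the changes with 2i no longer passed (Wnt5b, Fzd10, Ror1, Tle3 and Wif1, adjusted p from 0.0523 to 0.11), nor did 5 with AA+2i (Fzd10, Pygo1, Cdx1, Cd44 and Msx2, adjusted p from 0.0511 to 0.112). Without AA+2i replicate C, Wnt5b with 2i (adjusted p = 0.0515) and 6 of the changes with AA+2i (Fzd7, Fzd10, Pygo1, Tle1, Cd44 and Msx2, adjusted p from 0.05 to 0.15) no longer passed. Each kept its direction.

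**Figure D4:**
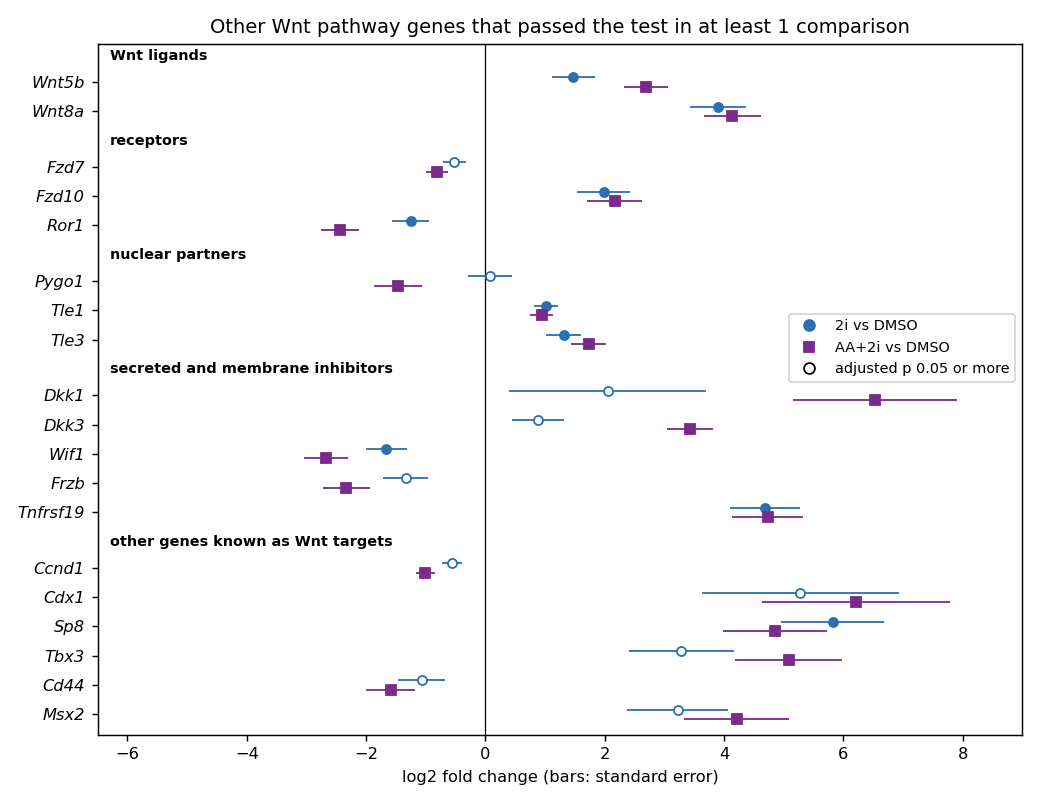
Log2 fold change (points, with bars of 1 SE) of the pathway genes outside the set that passed in 2i against DMSO (circles) or AA+2i against DMSO (squares), by list, where open points did not pass. Wnt8a, Tnfrsf19 and Sp8 lie near or above 4 in both comparisons, and Ror1 and Wif1 lie below 0 in both.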

How the data were processed

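RNA was sequenced from 12 libraries. After trimming and quality filtering, reads were aligned by the authors to RefSeq transcripts of mm9 (Bowtie and RSEM 1.2.4 in the submitters' processing notes), and expected counts and TPM per gene were deposited. The expected counts deposited by the authors are not normalized, and were rounded here. The TPM deposited by the authors are scaled within each library. One malformed TPM value, of a gene outside the set, was recomputed.

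Counts were tested with edgeR 4.0.16 in R 4.3.3 (two-sided quasi-likelihood test, RLE factors, 1 model of the 4 conditions, 8 residual degrees of freedom). The filter kept 13400 of 20325 genes, those with 10 or more counts in 3 or more libraries, and Benjamini-Hochberg adjusted p-values under 0.05 over all of them were called. GC curves were loess fits of log2 CPM on transcript GC content (span 0.4, known for 99.21% of tested genes). DESeq2 1.42.0 and limma 3.58.1 were alternatives, with a pseudocount of 1 or 0.1 on TPM. The code was tested on simulated data. The members, lists and tests were chosen with earlier results of these data known. Text names all 10 members, list genes that passed against DMSO in the same direction in all 3 letters (up to 6 per list), and the 6 most similar genes. The letters were not treated as pairs. EB-Seq, used in the study, was not run.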

Additional observations from a re-analysis of the deposited data

Results flagged for a closer look

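For Rnf43 and Lgr5, the libraries moved in opposite directions when AA was added without and with 2i, when set against group means. All 3 AA libraries lay below the DMSO mean and all 3 AA+2i libraries lay above the 2i mean on the log2 CPM scale. The difference between both effects of AA was 1.33 for Rnf43 (SE 0.913, adjusted p = 1.0) and 1.5 for Lgr5 (SE 0.739, adjusted p = 1.0) in the interaction test of edgeR, and neither passed. Both genes were at or below 0.62 TPM in every library. Outlying single libraries were not sought, since each group had 3. Letter by letter the direction was mixed without 2i, where Rnf43 was higher with AA in letter A (0.33 on the log2 scale) and Lgr5 in letter C (0.24). Without AA+2i replicate C the interaction was 0.93 for Rnf43 and 0.76 for Lgr5, and without the libraries lettered B it was 0.53 for Rnf43.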

How the results depend on the processing

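Axin2, Nkd1, Rnf43 and Sp5 were higher than DMSO with 2i and with AA+2i under every alternative that could test them. The number of members called depended on the settings. With at least 10 counts in every library, which left 3 members to test, it was 0 with 2i, 1 with AA+2i, 0 for AA+2i against AA and 1 averaged over AA. The GC correction gave 5 with 2i. The replicate block, a term for the letter, gave 7 with 2i (also Rnf43, Lef1, Tcf7 and Notum). It gave 7 with AA+2i (also Lef1 and Notum, the latter at adjusted p = 0.00366) and 1 for AA+2i against 2i (Sp5). Of all 13400 tested genes, that fit called 686, 2051 and 400 higher in these comparisons, beside 213, 526 and 102 without the block. In the pathway lists it called more genes with AA+2i. Among them were Gsk3a (adjusted p = 0.0185), Lgr4 (adjusted p = 0.0263), Lrp6 (adjusted p = 0.00261) and Tcf7l1 (adjusted p = 0.00947). Without the block Gsk3a (0.74) and Tcf7l1 (1.63) were higher, Lgr4 (-0.65) and Lrp6 (-0.92) were lower, and none of these passed. With the GC correction and no block, Tcf7l1 passed (adjusted p = 0.0102). Gsk3a (adjusted p = 0.597), Lgr4 (adjusted p = 0.329) and Lrp6 (adjusted p = 0.0684) did not. The replicate block with the GC correction gave 7 with 2i, 7 for AA+2i against AA, 2 for AA+2i against 2i and 1 for AA against DMSO (Lef1). In the same order it called 1399, 1678, 876 and 741 of all 13294 tested genes higher. The cause of these shifts was not tested. Deviations of libraries with the same letter correlated at -0.588 to 0.894 (above 0.1 in 15 of 18 pairs), and 11 of 12 libraries were most like one of their own letter, which is a hint from the data and not the design.

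When the libraries of a letter, or DMSO replicate A or AA+2i replicate C (both chosen after the data were seen), were left out, the number called ranged from 0 to 3 with 2i, 0 to 4 with AA+2i, 0 to 4 for AA+2i against AA and 4 to 6 averaged over AA. The log2 differences that turned in sign had not passed. Znrf3 with 2i was -0.05 with limma at either pseudocount, and -0.07 to 0.39 with libraries left out. Znrf3 with AA+2i was -0.12 and -0.14 with limma at a pseudocount of 1 and 0.1, 0.00 with the GC correction with or without the block, and -0.14 to 0.30 with libraries left out. Lgr5 with AA+2i was -0.02 and -0.13 with limma, and -0.50 to 0.69 with libraries left out. Axin2 in AA+2i against 2i was -0.17 to 0.78 with libraries left out.

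Of 648 refits of member values, 572 kept their direction and side of the threshold, 30 newly passed, 31 no longer passed and 15 turned. Of 399 refits of the other pathway genes 102 no longer passed, all in the same direction. Low counts without 2i (Axin2, Nkd1, Rnf43 and Sp5) limit the size of a fold more than its direction.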
